A study of Drosophila melanogaster with 18 samples.

Results

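TFAM overexpression was examined here in larvae whose neurons also carried RNAi against aop. The members of the comparison are the 3 arrays with both transgenes (TFAM o/e, Aop RNAi) and the 3 with Aop RNAi alone, 6 of the 18 arrays of the series, taken by their titles. Each array held RNA from the dissected central nervous system (CNS) of 20 wandering larvae raised at 25 °C, hybridised to the Affymetrix Drosophila Genome 2.0 chip. All 6 samples carried the pan-neuronal driver nsybGal4 and an RNAi transgene against aop, and the double genotype carried UAS-TFAM3M in addition. The other 4 genotypes, with 3 arrays each, were a control with the driver alone, TFAM o/e without a knock-down, Pnt RNAi by itself, and the combination TFAM o/e, Pnt RNAi. The driver acts in neurons only, while the RNA came from the whole CNS, so fewer cells of a type and less RNA per cell cannot be told apart. The double genotype had 1 UAS transgene more than its comparison group, and the effect of TFAM itself and that of a further transgene or its insertion cannot be told apart.

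TFAM packages mitochondrial DNA into nucleoids and is needed for its transcription and copying. In Drosophila its ubiquitous overexpression lowers mitochondrial gene expression, and its overexpression in motor neurons reduces the mitochondria at their synapses. Damaged mitochondria in turn signal to the nucleus, a route called retrograde signaling. In the canonical model Aop, also named Yan, is an ETS-family repressor that lies downstream of Ras and ERK. It competes there with the ETS activator Pnt for the same targets. For motor neurons, however, the paper concludes that Aop and Pnt both work as positive effectors of the pathway. The comparison asks which transcripts respond to TFAM overexpression when Aop is knocked down.

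The deposited values are log2 signals made with MAS5.0, and 18769 probe sets were tested with limma, a linear model whose variance estimates are shared across probe sets. The model was fitted to all 18 arrays, and a probe set was called where its Benjamini-Hochberg adjusted p was under 0.05. Levels and fold changes below are on the log2 scale, and a level compares arrays of 1 probe set, never different genes. The medians of the 6 arrays lay between 5.14 and 5.56, and between 46.5% and 49.3% of an array's values fell under log2 5, where MAS5.0 signals vary most. Descriptions therefore centre on the 8633 probe sets (46.0%) with a mean of 6 or more over the 6 arrays. The neuronal genes elav (11.65 to 12.46) and nSyb (8.88 to 9.65) and the glial gene repo (11.39 to 12.04) were high on all 6 arrays, and the testis gene dj was at 4.54 or less while another, betaTub85D, read 7.01 to 7.78. Signals of other larval tissues were present. The glue genes Sgs3, Sgs5, Sgs7 and Sgs8 of the salivary gland read 5.99 to 10.41, while another, Sgs1, was at 5.03 or less. The fat body gene Lsp2 read 9.30 to 11.17. For each of these genes the 2 groups overlapped.

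The transgene was visible on the arrays. TFAM read 10.85, 10.68 and 10.35 on the Aop RNAi arrays and 12.19, 12.05 and 12.06 on the double-genotype arrays. The 2 groups did not overlap, and the rise was 1.47 (standard error 0.17, limma adjusted p = 9.37e-05), or 2.78-fold. In the control background TFAM went from a mean of 10.58 to 12.08, and with Pnt RNAi from 10.45 to 12.15. The effect with Aop RNAi differed from that in the control background by -0.02 (95% interval -0.51 to 0.47). The aop probe set read 10.56, 10.63 and 10.92 with Aop RNAi and 10.54, 10.51 and 10.94 with both transgenes, a difference of -0.04 (95% interval -0.37 to 0.29, limma adjusted p = 1). As its mean in the control was 10.68, this probe set does not show the knock-down, and whether it lies within the stretch matched by the hairpin is not known here. On these arrays, each direction given for Aop RNAi therefore rests on their labels. The paper shows Aop staining nearly gone from eye disc photoreceptors with its Aop RNAi line, a tissue other than the CNS used here. The pnt probe set differed by -0.31 between the groups and was not called (limma adjusted p = 1). Its mean was 9.49 with Pnt RNAi and 9.21 with TFAM o/e, Pnt RNAi, above the 8.44 of the control. This probe set therefore does not show the Pnt knock-down, and the Pnt RNAi background also rests on its labels. The paper shows PntP2 staining nearly lost from eye disc photoreceptors with its Pnt RNAi line.

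In all, 39 of the 18769 probe sets were called (0.208%), with 22 higher (0.117%) and 17 lower (0.0906%) in TFAM o/e, Aop RNAi than in Aop RNAi. Among the probe sets with a mean of 6 or more, 33 were called (0.382%), 19 of them higher (0.22%) and 14 lower (0.162%). The arrays of the 2 groups did not overlap for any of the 39. Of the 8633 probe sets, 2.72% were separated in this way with higher values and 3.73% with lower values. Of the 33, 29 carried 1 gene symbol, 2 carried several and 2 none. With only the 6 arrays of the comparison in the model, 12 of the 39 still passed, and 21 passed in every 1 of the 6 fits that left out an array of the comparison.

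**Figure D1:**
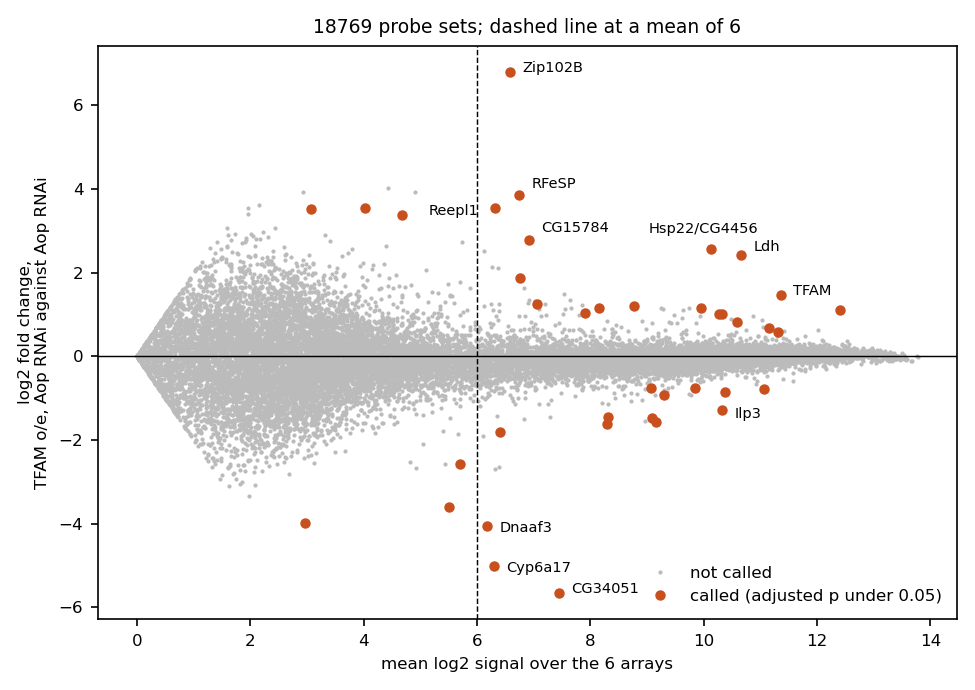
Log2 fold change between TFAM o/e, Aop RNAi and Aop RNAi (vertical axis) against the mean log2 signal over the 6 arrays (horizontal axis) for all probe sets tested, with the 39 called ones in orange. The scatter widens below a mean of 6 (dashed line), where 6 of the 39 calls lie, and the named probe sets range from a rise of 6.81 for Zip102B to a fall of 5.66 for CG34051.

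The called probe sets fell into different patterns once their levels on the 12 arrays of the other genotypes were set beside them. For 12 of the 33, Aop RNAi alone differed from the control and the double genotype did not pass. Another 12 passed only for the double genotype against the control, 9 passed for neither, and none for both. Over the 8633 probe sets, 0.313% were called for Aop RNAi against the control and 0.382% for the double genotype. These comparisons share arrays with each other, so the groupings are a description of levels. They are taken in turn below, beginning with genes whose response to TFAM was also called in the other backgrounds.

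Some of the response was called in the same direction in all 3 backgrounds. For 8 of the 33 probe sets the same direction passed in the control background, and these 8 passed in the Pnt RNAi background as well. Of them 5 rose, namely Ldh, Hsp22 with CG4456, GstD2, CG15784 and TFAM itself, and 3 fell, namely Ilp3, botv and CG8858. Over all probe sets with a mean of 6 or more, 0.278% were called in the control background and 0.266% in the Pnt RNAi background.

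Ldh encodes lactate dehydrogenase, which turns pyruvate into lactate and restores NAD+ when respiration is limited. It read 9.79, 9.60 and 8.97 with Aop RNAi and 11.90, 11.84 and 11.88 with both transgenes. The 3 double-genotype arrays lay within a narrow band far above the others, and the rise was 2.42 (standard error 0.23, limma adjusted p = 1.24e-05), or 5.35-fold. In the control background Ldh rose by 1.69 and in the Pnt RNAi background by 1.90. All 3 TFAM genotypes reached the same level (means of 11.91, 11.80 and 11.87), and the difference of the rise from that in the control background, 0.73 (95% interval 0.05 to 1.41), did not pass over all probe sets (limma adjusted p = 1).

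Hsp22 is a small heat shock protein of the mitochondrial matrix in Drosophila. Its probe set, shared with the adjacent gene CG4456, read 9.42, 8.64 and 8.51 with Aop RNAi and 11.75, 11.16 and 11.34 with both transgenes. The groups were well apart, with a rise of 2.56 (standard error 0.25, limma adjusted p = 1.91e-05). A second probe set of the same 2 genes differed by 0.17 (standard error 0.63, limma adjusted p = 1), so the probe sets disagree and the signal cannot be assigned to 1 of the genes. The larger rise was 2.67 in the control background and 3.01 with Pnt RNAi.

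GstD2, a glutathione S-transferase that conjugates reactive compounds to glutathione, read 5.70, 6.15 and 5.62 against 7.77, 7.65 and 7.67. It rose by 1.87 (standard error 0.25, limma adjusted p = 0.000812), beside 1.28 in the control background and 1.38 with Pnt RNAi. CG15784, for which no role is given here, read 5.59, 5.60 and 5.38 against 7.99, 8.29 and 8.63. Its rise of 2.78 (standard error 0.21, limma adjusted p = 8.12e-07) compares with 2.05 and 1.43 in the other 2 backgrounds, and neither difference between backgrounds passed (limma adjusted p = 1 and 0.396).

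Among the falls, the insulin-like peptide gene Ilp3, expressed in the insulin-producing neurons of the brain, read 10.95, 10.98 and 10.97 with Aop RNAi. With both transgenes it read 9.85, 9.56 and 9.63. The groups were far apart beside their own spread, and the fall came to -1.29 (standard error 0.11, limma adjusted p = 5.49e-06). It fell by 0.97 in the control background and by 0.95 with Pnt RNAi, and the difference of -0.32 from the control background (95% interval -0.66 to 0.02) did not pass (limma adjusted p = 1). Ilp1, which lies next to Ilp3 with only Ilp2 between them in the RefSeq annotation, had a mean under 6. It read 6.54, 7.09 and 7.32 against 4.34, 4.23 and 4.68, so it fell by 2.57 (standard error 0.39, limma adjusted p = 0.00292). It fell by 1.98 with signals under 32 (log2 5) set to 32. Ilp2 and Ilp5, the other insulin-like peptides of the insulin-producing cells, were not called. Their fold changes were 0.44 and 0.04 (limma adjusted p = 1 for both), with Ilp2 at 11.08, 11.03 and 11.43 against 11.25, 11.83 and 11.79.

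The gene botv encodes an EXT-family glycosyltransferase that builds heparan sulfate chains. It read 9.51, 9.67 and 10.28 against 8.04, 8.48 and 8.51, and fell by 1.48 (standard error 0.22, limma adjusted p = 0.00292). The gene fell by 1.35 in the control background and by 1.47 with Pnt RNAi. CG8858 fell by 0.76 (limma adjusted p = 0.043). This call was lost with any of the 6 arrays left out, at an adjusted p of up to 0.251, while it fell by 1.17 in the control background and by 0.95 with Pnt RNAi.

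**Figure D2:**
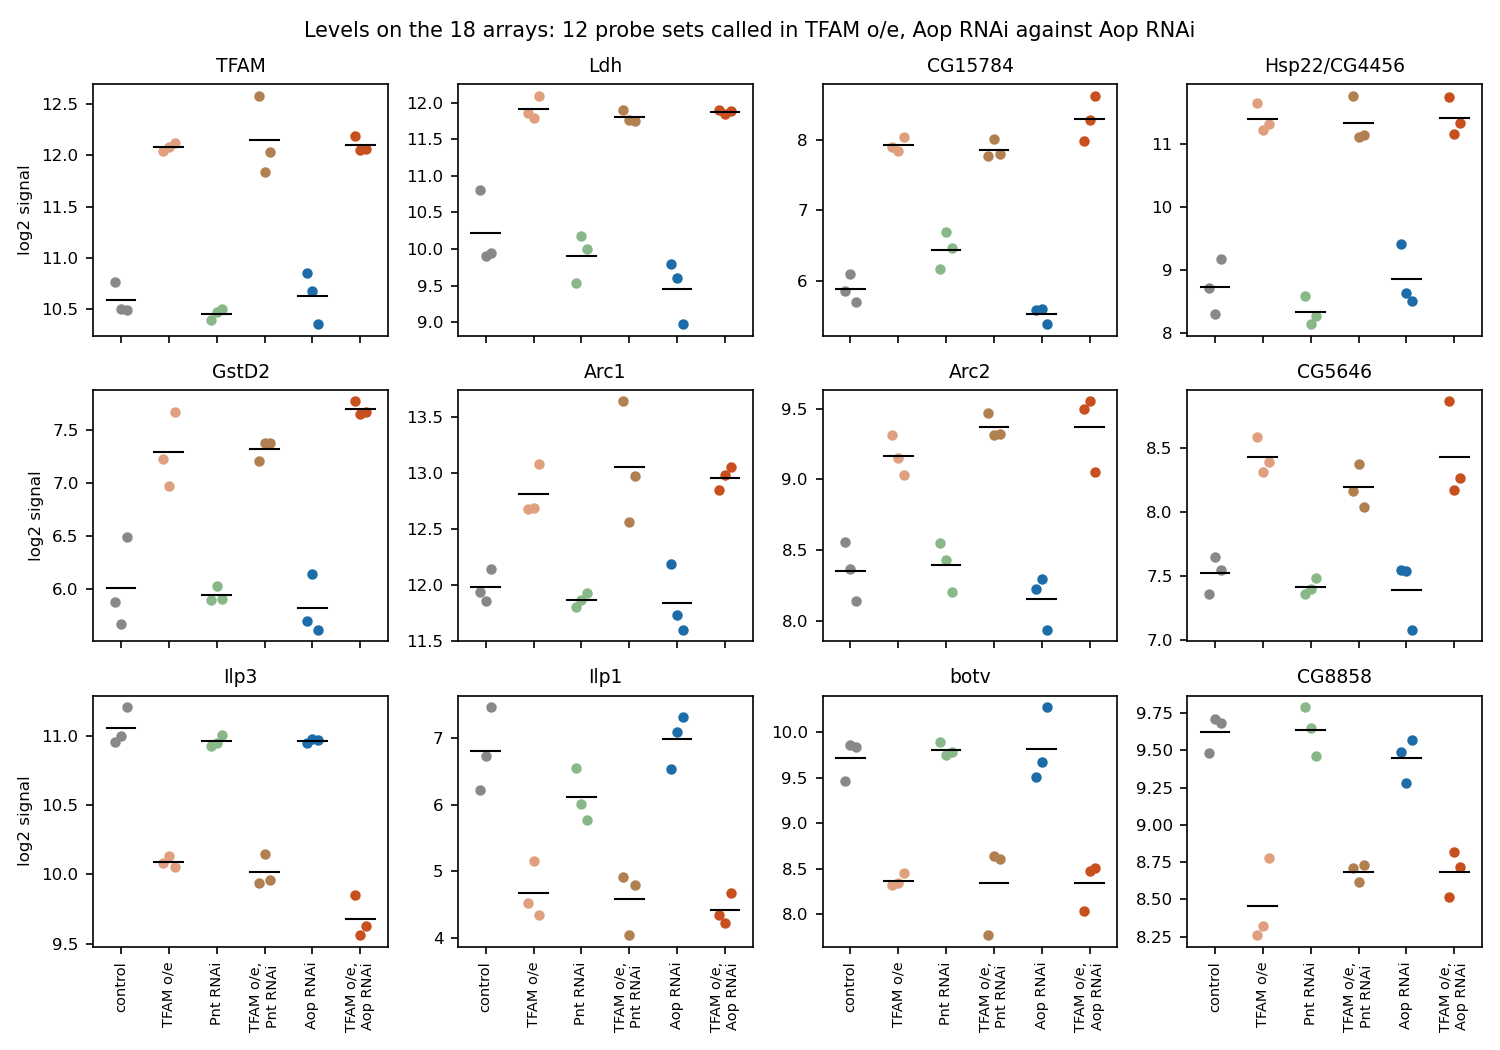
Log2 signals of 12 called probe sets on each of the 18 arrays, by genotype (points are arrays, lines are means of 3 arrays, and vertical axes differ between panels and do not start at 0). For Ldh the 3 genotypes with TFAM o/e have means of 11.91, 11.80 and 11.87, and for Ilp3 the 3 genotypes without it have means of 11.06, 10.96 and 10.97.

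Arc1 and Arc2, adjacent genes for Gag-related proteins that form capsids, also rose. Arc1 is known as an activity-regulated gene of neurons. Arc2 read 8.23, 8.30 and 7.94 against 9.50, 9.55 and 9.05, a rise of 1.21 (standard error 0.16, limma adjusted p = 0.000959). Arc1 read 12.19, 11.73 and 11.60 against 12.85, 12.98 and 13.05, a rise of 1.12 (standard error 0.21, limma adjusted p = 0.0307). With 1 array left out its call was lost in 5 of the 6 fits, all but that without Aop RNAi replicate 1, at an adjusted p of up to 0.209. A second, dimmer probe set of Arc1 had a fold change of 1.45 and was not called (limma adjusted p = 1). Both genes passed with Pnt RNAi (0.97 for Arc2 and 1.19 for Arc1), and in the control background their fold changes of 0.81 and 0.84 did not (limma adjusted p = 0.0532 and 0.254).

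A different set of probe sets had levels that set the Aop RNAi arrays apart from the control, while the double genotype was not called against it. Several of them, such as Zip102B, CG34051, Cyp6a17, Dnaaf3 and 1 probe set of RFeSP, were near or under log2 5 in some genotypes and well above it in others. Whether the strains differ in sequence under these probes was not tested, so these values are given as signals of a probe set. Zip102B, of the ZIP family of zinc transporters, read 4.06, 1.97 and 3.49 with Aop RNAi and 10.13, 9.88 and 9.94 with both transgenes. The control mean was 9.94, so the double-genotype arrays lay at the control level and the Aop RNAi arrays far below it. The difference was 6.81 (standard error 0.55, limma adjusted p = 1.86e-06). As the low arrays were under log2 5 its size is not resolved, and with signals under 32 set to 32 it was 4.98. In the control background the change ran the other way: TFAM o/e arrays read 2.61, 5.51 and 3.43, so Zip102B fell by 6.09. The difference between the 2 effects was 12.90 (standard error 0.78, limma adjusted p = 4.15e-08), one of 10 called interactions of TFAM o/e with Aop RNAi (0.0533% of the probe sets). Its size is not resolved either, since it rests on 2 groups with means under log2 5. In the Pnt RNAi background, Zip102B rose by 5.68 from a mean of 3.38. With signals under 32 set to 32, the control-background fall was -4.77, the interaction 9.75 and the rise with Pnt RNAi 4.06, all of them called.

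RFeSP encodes the Rieske iron-sulfur protein of respiratory complex III. One of its probe sets read 4.94, 4.14 and 5.33 with Aop RNAi and 8.86, 8.65 and 8.51 with both transgenes, beside a control mean of 8.85. That is a difference of 3.87 (standard error 0.23, limma adjusted p = 3.44e-08), or of 3.56 with signals under 32 set to 32. Its other probe set, which was brighter, read 10.84, 10.49 and 10.03 against 10.97, 10.56 and 10.32. The groups overlapped there, with a difference of 0.16 (standard error 0.19, limma adjusted p = 1), so the change belongs to 1 probe set and not to the gene as a whole. The first probe set rose by 3.60 with Pnt RNAi and had a difference of -0.11 in the control background, and the interaction with Aop RNAi was 3.98 (standard error 0.33, limma adjusted p = 3.53e-06).

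TTLL4B, a tubulin tyrosine ligase-like gene, read 7.72, 7.41 and 7.60 with Aop RNAi and 8.85, 8.53 and 8.83 with both transgenes, beside a control mean of 8.87. The Aop RNAi arrays were the lowest of the 18, and the difference was 1.16 (standard error 0.16, limma adjusted p = 0.00132), with an interaction of 1.30 (limma adjusted p = 0.0476). Cpr51A, named for a cuticle protein family, was higher by 1.01 (limma adjusted p = 0.00603, lost at 0.0654 without replicate 2 of the double genotype), and CG9662 by 0.82 (limma adjusted p = 0.0258). The CG9662 call was lost in 4 of the 6 fits with 1 array left out, at up to 0.166, and passed without Aop RNAi replicate 2 or without replicate 3 of the double genotype. In both, the double genotype lay within 0.18 of the control on the log2 scale.

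The opposite arrangement was a level that was high with Aop RNAi and lower with both transgenes, where it was not called against the control. CG34051 read 9.72, 10.91 and 10.18 with Aop RNAi and 4.01, 5.56 and 4.26 with both transgenes. In the other 4 genotypes the means were 3.71 to 5.35, so the 3 Aop RNAi arrays were alone in their height. CG34051 fell by 5.66 (standard error 0.54, limma adjusted p = 1.24e-05). It fell by 5.08 with signals under 32 set to 32. It differed from the effect in the control background by -5.49 (limma adjusted p = 0.00496) and from that in the Pnt RNAi background by -7.19 (limma adjusted p = 0.000394). Of the 39 called probe sets it alone differed between the Aop RNAi and Pnt RNAi backgrounds (3 of all probe sets did, 0.016%).

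Cyp6a17, a cytochrome P450, read 8.64, 9.31 and 8.47 with Aop RNAi and 3.59, 3.85 and 3.92 with both transgenes. The control mean was 1.92 and that of Pnt RNAi 7.18, so both knock-downs were high without TFAM o/e. Cyp6a17 fell by 5.02 (standard error 0.67, limma adjusted p = 0.000826). It fell by 3.81 with signals under 32 set to 32. With Pnt RNAi its difference of -3.30 did not pass (limma adjusted p = 0.0597), and the interaction with Aop RNAi was -5.70 (limma adjusted p = 0.0301). Dnaaf3, a homologue of an assembly factor for axonemal dynein, read 8.16, 7.97 and 8.48 against 3.68, 4.09 and 4.68, beside a control mean of 4.15. It fell by 4.05 (standard error 0.67, limma adjusted p = 0.00733). The gene fell by 3.20 with signals under 32 set to 32. The call was lost without Aop RNAi replicate 3 and without replicate 1 or 2 of the double genotype, at up to 0.0698.

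Arpc1, a subunit of the Arp2/3 complex that nucleates actin filaments, read 9.79, 10.20 and 9.80 with Aop RNAi and 8.60, 8.17 and 8.34 with both transgenes. The control mean was 8.31 and that of Pnt RNAi 9.46, and Arpc1 fell by 1.56 (standard error 0.17, limma adjusted p = 9.37e-05). It fell by 1.02 with Pnt RNAi and had a difference of 0.29 in the control background, with an interaction of -1.85 (limma adjusted p = 0.00352). The probe set of the histone gene His1, which matches its many repeated copies, fell by 0.86 (limma adjusted p = 0.00518), and CG4646 fell by 0.75 (limma adjusted p = 0.0157, and up to 0.131 without Aop RNAi replicate 3 or replicate 3 of the double genotype). One unnamed probe set fell by 1.62 (limma adjusted p = 0.0478, and up to 0.324 in the 4 of 6 fits that lost it) and completes these 12. Its mean was 7.49 with both transgenes and 6.39 in the control, so it stayed above the control by 1.10 without passing (limma adjusted p = 0.374), and Cyp6a17 likewise stayed above by 1.87 (limma adjusted p = 0.58). Of the 12, 4 differed at the same threshold in the same direction with Pnt RNAi (Zip102B, RFeSP, Cpr51A and Arpc1), and 6 of the 7 called probe sets with an interaction with Aop RNAi were among them.

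**Figure D3:**
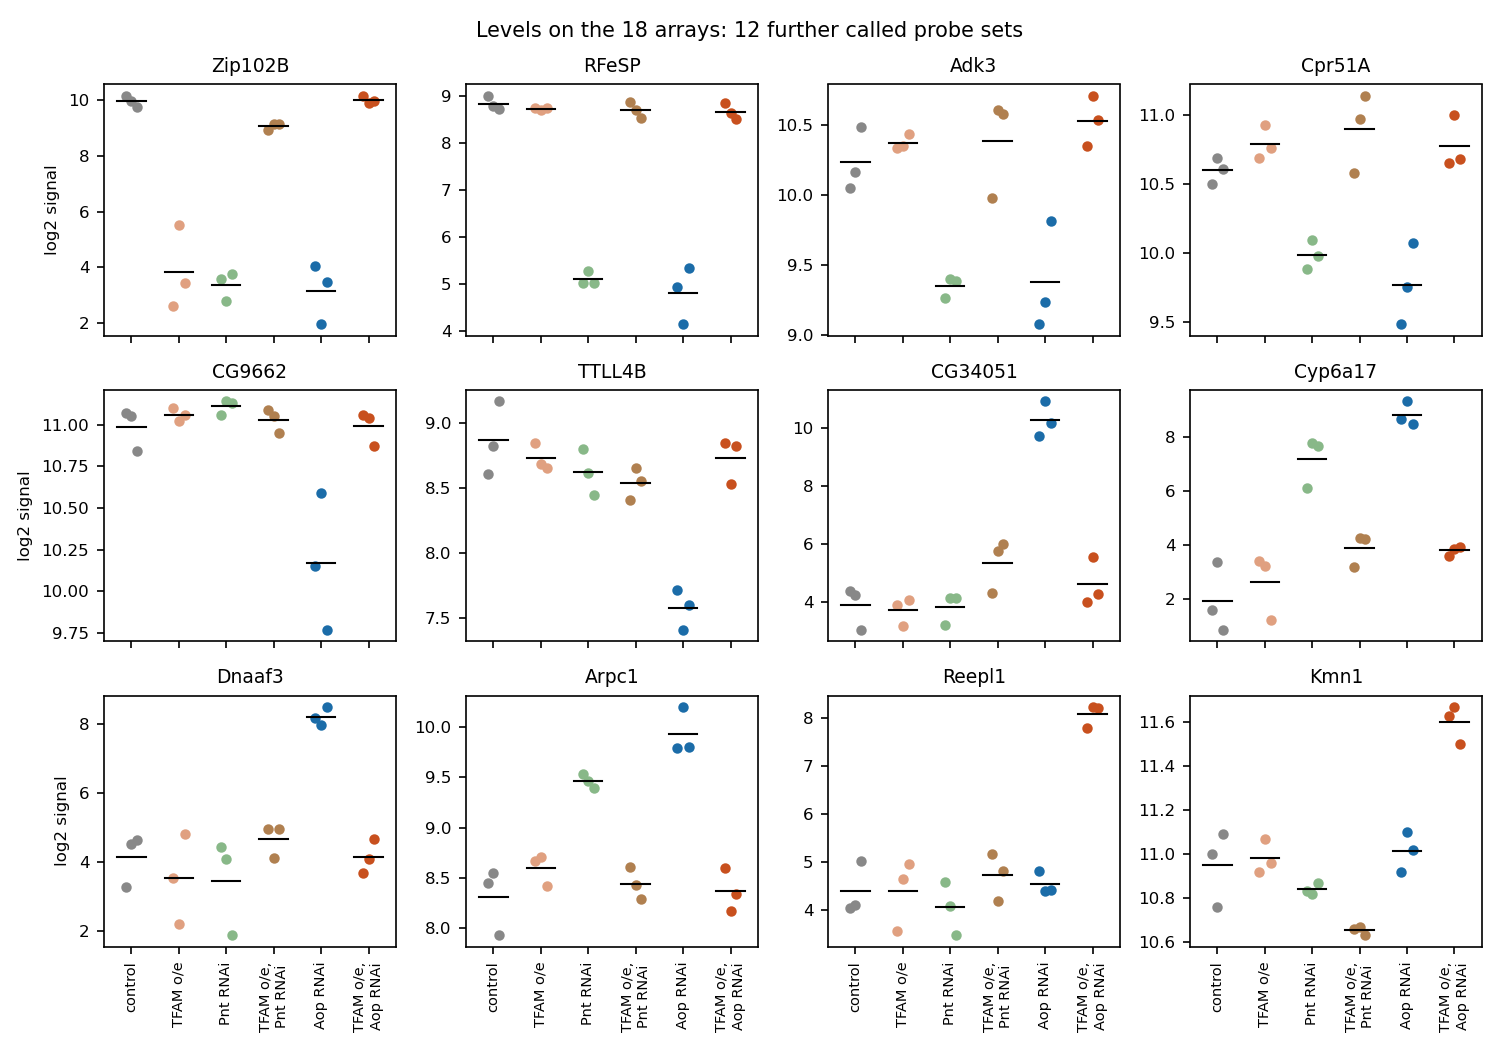
Log2 signals of 12 further called probe sets on each of the 18 arrays, by genotype (points are arrays, lines are means of 3 arrays, and vertical axes differ between panels and do not start at 0). Zip102B, RFeSP and TTLL4B were lower with Aop RNAi than with both transgenes, CG34051, Cyp6a17, Dnaaf3 and Arpc1 were higher, and Reepl1 had means of 4.06 to 4.73 in all genotypes except TFAM o/e, Aop RNAi, where its mean was 8.08.

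In a further arrangement, a level set the double genotype apart from the other genotypes. Reepl1, named for its likeness to the REEP family of endoplasmic reticulum shaping proteins, read 4.82, 4.40 and 4.42 with Aop RNAi and 7.80, 8.24 and 8.21 with both transgenes. The means of the other 4 genotypes were 4.06 to 4.73. It rose by 3.54 (standard error 0.45, limma adjusted p = 0.000497), or by 3.08 with signals under 32 set to 32, against 0.00 in the control background and 0.67 with Pnt RNAi. The interaction with Aop RNAi was 3.53 (limma adjusted p = 0.0476, and up to 0.198 with 1 array left out, when it was lost each time), and the difference from the Pnt RNAi background, 2.86, did not pass (limma adjusted p = 0.396). Kmn1, a kinetochore protein gene, lies next to Reepl1 in the RefSeq annotation. It read 10.92, 11.10 and 11.02 against 11.63, 11.67 and 11.50, a rise of 0.59 (limma adjusted p = 0.0314) that was lost in 5 of the 6 fits with 1 array left out, all but that without replicate 3 of the double genotype, at up to 0.197, and its interaction of 0.55 did not pass (limma adjusted p = 0.785).

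The retrotransposon HMS-Beagle was measured by a probe set for its pol gene. That probe set read 7.23, 7.35 and 7.34 with Aop RNAi and 5.22, 5.51 and 5.75 with both transgenes, and fell by 1.81 (standard error 0.26, limma adjusted p = 0.00145). The groups were well apart, while the differences of -0.25 in the control background and -0.40 with Pnt RNAi did not pass. Its interaction with Aop RNAi, -1.56, did not pass either (limma adjusted p = 0.418). HMS-Beagle is present in many copies, so the signal cannot be assigned to 1 insertion.

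Of the other called probe sets, Adk3, an adenylate kinase, read 9.08, 9.24 and 9.82 against 10.35, 10.71 and 10.54. The rise of 1.15 (limma adjusted p = 0.00719) was lost without Aop RNAi replicate 1 or 2 and without replicate 2 of the double genotype, at up to 0.0701. It compares with 1.04 with Pnt RNAi and 0.14 in the control background, and the interaction of 1.01 did not pass (limma adjusted p = 0.525). GstT3, another glutathione S-transferase, read 9.57, 10.09 and 9.82 against 11.14, 10.66 and 10.69, a rise of 1.00 (limma adjusted p = 0.00719), lost without replicate 1 of either group at up to 0.0662. CG14757, CG5646 and CG10527 rose by 1.24, 1.04 and 0.68. CG5646 lost its call without Aop RNAi replicate 3 or replicate 1 of the double genotype (up to 0.173), and the other 2 lost theirs in 4 of the 6 fits, passing without Aop RNAi replicate 2 or replicate 3 of the double genotype. CG11170 fell by 1.45 (limma adjusted p = 0.00122), Arglu1, an arginine and glutamate rich protein gene, by 0.78 (limma adjusted p = 0.0454), and an unnamed probe set by 0.93 (limma adjusted p = 0.00145). The Arglu1 call was lost in 4 of the 6 fits, at up to 0.292, and passed without replicate 3 of either group.

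Under a mean of 6, CG15731, CG34109 and CG13566 rose by 3.55, 3.53 and 3.39, CG13053 fell by 3.99 and an unnamed probe set by 3.60, beside Ilp1 above. CG34109 and CG13566 were also called in both other backgrounds. The called probe set of CG34109 was the dimmest of 5, and the others, none of them called, differed by 1.71 (the brightest), 2.10, 0.42 and -0.83. With 1 array left out, the call of CG13053 was lost in 6 of 6 fits, those of CG15731 and CG13566 in 5 and that of CG34109 in 2, at up to 0.251, while the unnamed probe set passed in all 6. With signals under 32 set to 32, CG15731 differed by 0.80, CG13566 by 1.37 and CG13053 by -0.13 and none of these passed, and CG34109 was at the floor on every array of the 2 groups. The unnamed probe set fell by 2.31 with this floor (limma adjusted p = 0.00494).

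**Figure D4:**
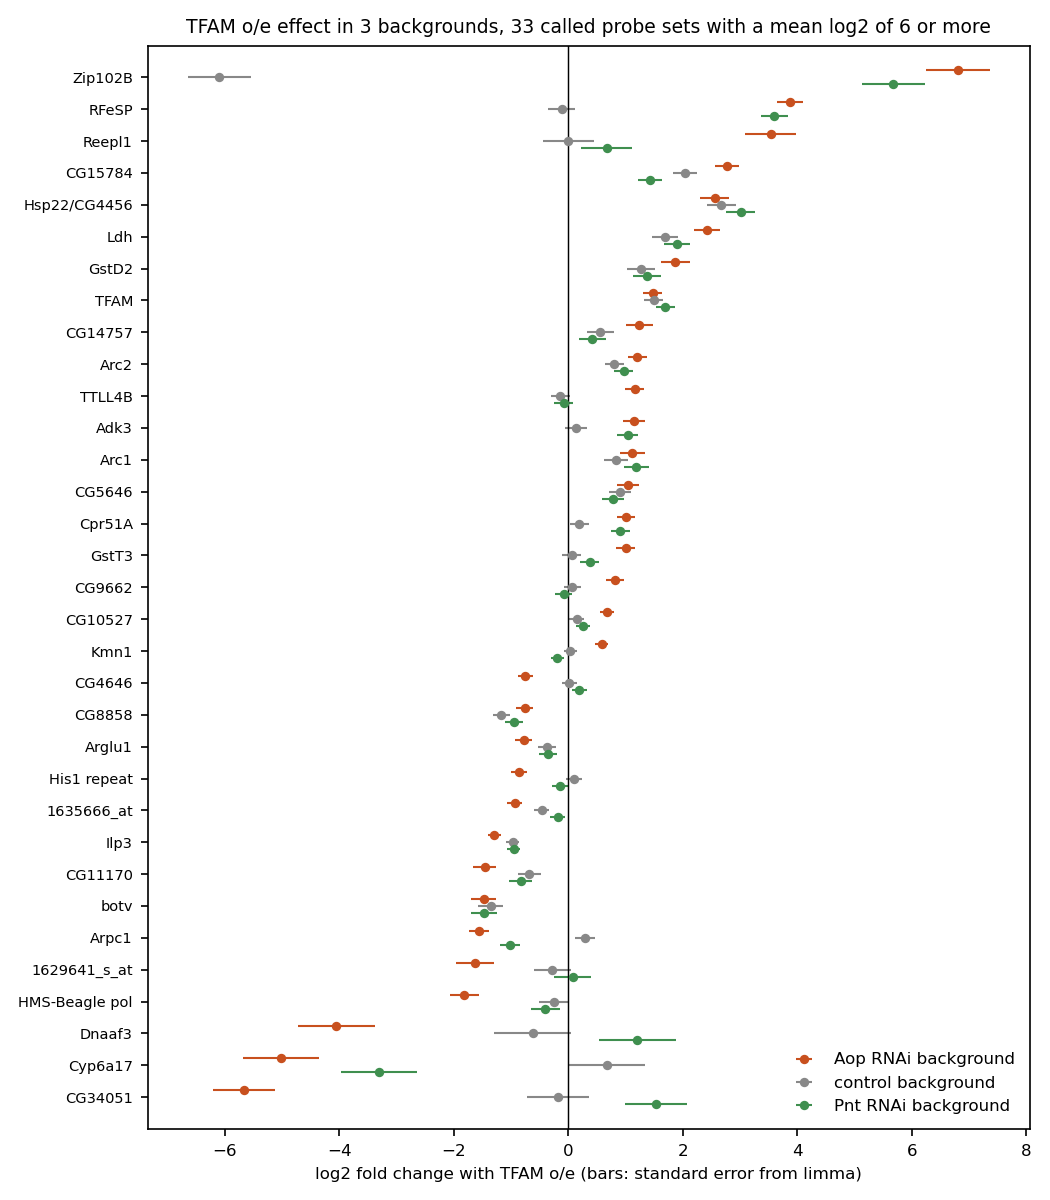
Log2 fold change with TFAM o/e (horizontal axis, bars are standard errors from limma) in the Aop RNAi, control and Pnt RNAi backgrounds for the 33 called probe sets with a mean of 6 or more. The Aop RNAi values chose the probe sets, 8 also passed in the control background in the same direction, 15 in the Pnt RNAi background, and Zip102B passed in the opposite direction in the control background.

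Across the 33 probe sets, 26 had the same sign in the control background as in the Aop RNAi background, 26 had it in the Pnt RNAi background, and 21 in both. Agreement in sign was not counted over all probe sets. Whether it was more frequent among the called ones was therefore not tested, and these counts alone do not show a shared response. Of the 33, 7 had an interaction with Aop RNAi that passed, namely Zip102B, RFeSP, Reepl1, TTLL4B, Arpc1, CG34051 and Cyp6a17. With each of the 12 arrays of this contrast left out once, Zip102B, RFeSP, Arpc1 and CG34051 passed in all 12 fits, with an adjusted p of at most 0.0312. The interaction was lost in 10 of the 12 fits for Cyp6a17, in 11 for TTLL4B and in 12 for Reepl1, at up to 0.199, with the same sign throughout. The 8 probe sets called in the same direction in all 3 backgrounds had interactions of up to 0.73 in size, and none of these passed.

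Genes of the pathways that surround these members were described from hand-written lists, of which 11 of 45 held a called probe set. The lists overlap, so these rest on fewer genes than their number. Ldh is the call in the lists of glycolysis, the HIF pathway and the ecdysone response, and Ilp3 is in those of insulin signaling and neuropeptides. Of the 20 probe sets of glycolysis and lactate metabolism with a mean of 6 or more, Ldh alone was called. Hex-A, a hexokinase, read 9.14, 10.05 and 9.23 against 10.37, 10.20 and 10.21, apart but not called (difference 0.79, limma adjusted p = 0.626). The differences of Pgm1, a phosphoglucomutase, and fbp, a fructose bisphosphatase of gluconeogenesis, were 0.48 and 0.46 (limma adjusted p = 0.969 and 0.93). The list did not move 1 way, as its differences ranged from -0.88 to 2.42. At an unadjusted limma p under 0.05, 4 of the 20 were higher and 1 was lower (1.78% and 2.34% of the 8633). The list's median was 0.14 (-0.02 over all 8633 probe sets). Of its 20 probe sets, 5 were separated in the higher direction and 0 in the lower (2.72% and 3.73% of the 8633). Among 25 glutathione S-transferase probe sets the median was 0.12, with GstD2 and GstT3 called. Here 5 were separated in the higher direction and 0 in the lower, beside the same shares of the 8633. GstO3 read 10.55, 10.37 and 10.38 against 11.42, 10.84 and 10.94 (difference 0.63, limma adjusted p = 0.286), and the abundant GstD1 overlapped between the groups (difference 0.30).

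Of the Ras-ERK-ETS pathway, 22 of 27 components had a probe set named by their symbol alone. Ras85D, Raf and rl, which encode Ras, Raf and ERK, and RasGAP1 and Eip74EF had none and were not analysed here. None of the 25 probe sets of the 22 components was called, nor any of 27 probe sets for 20 of the 25 ligands, targets and feedback regulators listed. At an unadjusted p under 0.05, also 0 of the 21 and 17 with a mean of 6 or more passed, where 154 of 8633 did with higher and 202 with lower values (1.78% and 2.34%). The complex I list of 35 probe sets held no call, and its 29 with a mean of 6 or more ranged from -0.21 to 0.26 with a median of 0.05. All 71 mitochondrial ribosomal protein probe sets lay between -0.34 and 0.27, with a median of 0.08 and 57 of 71 above 0, against 44.5% of the 8633. None passed at an unadjusted p under 0.05. The shared Hsp22 and CG4456 probe sets carry several symbols and are not counted in the list of mitochondrial chaperones and proteases, for which Hsp22 was written. Of the 20 probe sets that are counted there none was called, and Afg3l2, an inner-membrane protease subunit, was the one of them with an unadjusted p under 0.05 (difference 0.35, limma adjusted p = 0.752). The chaperones Hsc70-5 and Hsp60A differed by 0.23 and 0.06. Hsp60A changed sign to -0.12 without Aop RNAi replicate 3.

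Hsc70-2, a heat shock cognate, is a case where the TFAM o/e arrays stood high without either knock-down. Its mean was 8.54 with TFAM o/e and 4.09 in the control, and it read 4.56, 3.98 and 3.13 with Aop RNAi and 3.63, 0.09 and 3.77 with both transgenes. All 6 values were under log2 5, so no fold change is given. In the control background Hsc70-2 rose by 4.45 (limma adjusted p = 0.0336), to 8.32 to 8.68 on the TFAM o/e arrays. The difference between the effects in the Aop RNAi and control backgrounds was -5.84 (standard error 1.21). It did not pass (limma adjusted p = 0.186). Neither size is resolved, as both rest partly on values under log2 5, where signals vary most. The control arrays read 3.47, 2.86 and 5.94. The paper names Hsc70-2 as the gene raised most by TFAM overexpression. From a direct comparison of TFAM o/e with the double genotype, it reports that Aop knock-down strongly reduced this rise. None of 28 probe sets for the ATF4-driven response to amino acid stress was called. Thor, which encodes the translation repressor 4E-BP, read 10.97, 9.98 and 9.12 against 11.35, 10.78 and 10.64, with overlapping groups (difference 0.90, standard error 0.56, limma adjusted p = 1). In every genotype its values fell as the replicate number rose. At each number the double genotype read higher than Aop RNAi. Thor was not called with the replicate number as a block either.

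Lists of neuronal functions also held no call apart from Arc1, Arc2 and Ilp3. The median differences of all 6 such lists were below that of all probe sets (-0.02). They were -0.03 for 36 probe sets of neuropeptide precursors (15 above 0) and -0.03 for 12 of activity-regulated genes (4 above 0). The other 4 were -0.11 for 43 presynaptic probe sets (8 above 0), -0.27 for 20 of neurotransmitter synthesis and transport (3 above 0), -0.16 for 28 of voltage-gated ion channels (8 above 0) and -0.12 for 15 neuron marker probe sets (0 above 0). After quantile normalization the last 4 medians lay 0.15, 0.21, 0.14 and 0.12 below that of all probe sets. In the control background the same 4 medians were 0.06, 0.03, 0.00 and 0.04, and in the Pnt RNAi background they were -0.11, -0.18, -0.11 and -0.11, beside -0.07 for all probe sets there. Lists of other functions were low with Aop RNAi too, with medians of -0.14 for neuroblast identity and division (5 of 33 above 0), -0.19 for insulin and TOR signaling (5 of 15), -0.10 for the ecdysone response (6 of 24) and -0.09 for imaginal discs (7 of 21). No test of these lists was made. The glutamate receptor gene GluRIA read 8.95 to 9.34 against 8.50 to 8.63 (difference -0.55, limma adjusted p = 0.893).

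**Figure D5:**
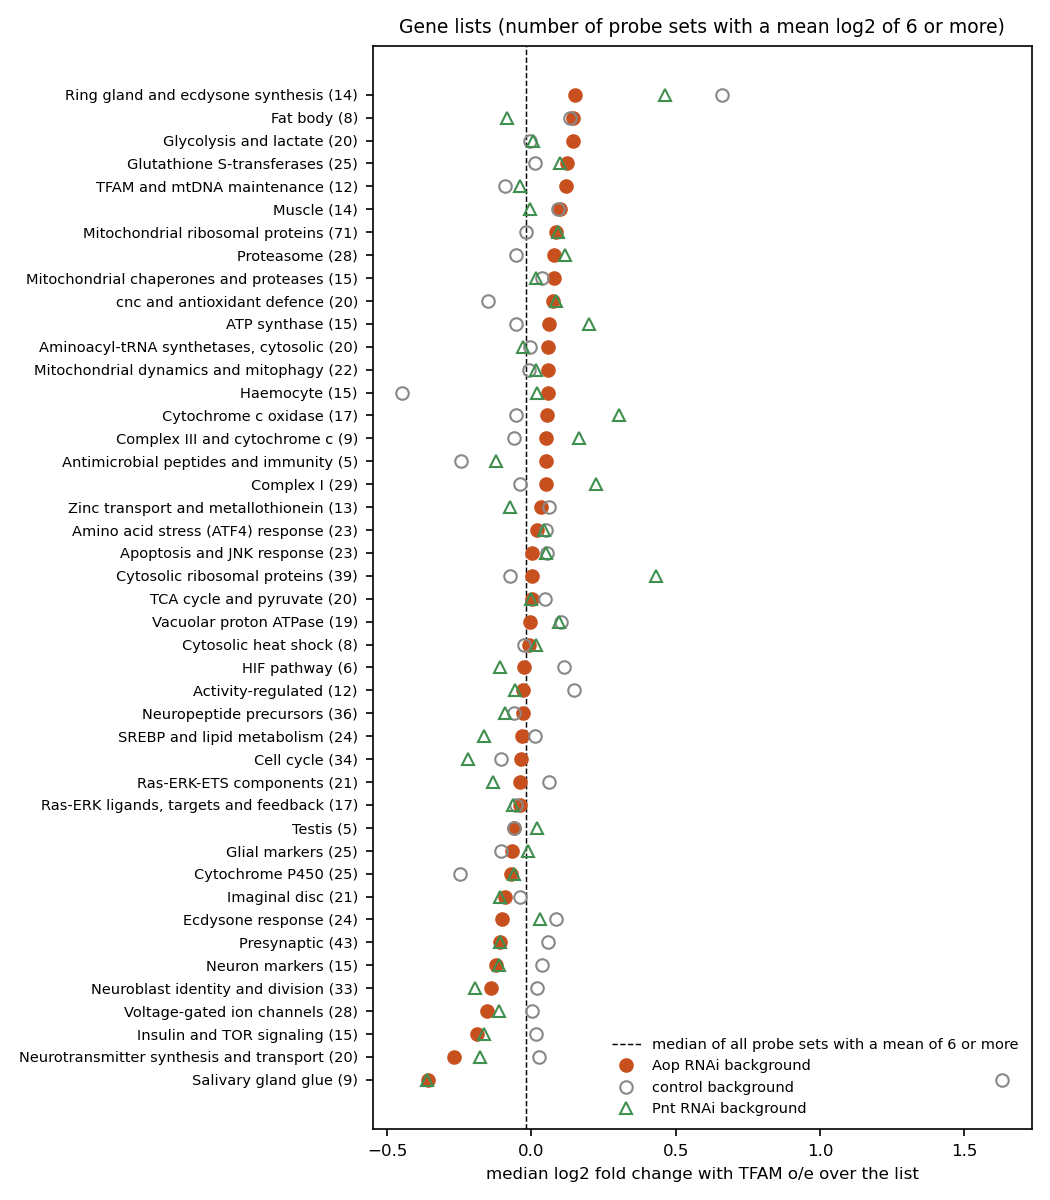
Median log2 fold change with TFAM o/e (horizontal axis) over hand-written gene lists with at least 5 probe sets at a mean of 6 or more, in the Aop RNAi, control and Pnt RNAi backgrounds, beside the median of all such probe sets in the Aop RNAi background (dashed line at -0.02). In the Aop RNAi background the medians lie between -0.36 for salivary gland glue genes and 0.15 for ring gland genes.

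Markers of other tissues were set beside these results. Salivary gland glue genes had a summed signal of 2594 to 6448 with Aop RNAi and 1397 to 4009 with both transgenes, and a median difference of -0.36 over 9 probe sets. The haemocyte list had a median difference of 0.06, with 9 of 15 probe sets above 0 and a range from -0.72 to 1.16. At an unadjusted p under 0.05 it had 3 of the 15 higher (1.78% of all 8633) and 0 lower, namely He, NimC1 and eater, with differences of 1.16, 1.11 and 1.14, none of them called (limma adjusted p of 0.899, 0.769 and 1). Hml, another defining haemocyte gene, differed by 0.31, and the list's summed signal was 5781 to 7360 against 6341 to 7773. Ring gland genes summed to 8754 to 17292 against 9827 to 19460 and fat body genes to 13410 to 34556 against 20541 to 23559. The ring gland gene sad, like Thor, fell in every genotype as the replicate number rose. It read 11.32, 10.21 and 9.03 with Aop RNAi and 11.60, 10.24 and 9.91 with both transgenes. No tissue list held a called probe set, and the part of these tissues in the called changes was not tested.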

How the data were processed

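CNS RNA (10 ng per sample) was amplified and hybridised to Affymetrix Drosophila Genome 2.0 arrays by the authors, who made the log2 signals with MAS5.0 in Transcriptome Analysis Console before they were deposited, with array scaling as that software sets it. Versions and genome build are not given in the sources used here. Values were used without further scaling. Of 18952 probe sets, 183 controls were left out. Of the rest, 13647 carry 1 symbol, 402 several and 4720 none. Symbols of 13544 were updated through Entrez identifiers, and 95 unnamed probe sets took names from the paper's tables.

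The group-means model of the 18 arrays used limma 3.58.1 (R 4.3.3) (lmFit, eBayes with trend, two-sided, Benjamini-Hochberg over 18769 probe sets). Labels do not say whether replicates were separate crosses, so p-values measure the spread between these samples. The number of arrays limits the precision.

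Named genes were the 12 largest rises and falls among called probe sets with a mean of 6 or more, no overlap and 1 symbol, with targeted genes, list members called or with the smallest p, and called probe sets under 6. The probe set with the highest mean over 18 arrays stands for a gene, others being given where they disagree. Remaining called probe sets were added after their values were seen. Members, rules and lists were chosen with earlier results of these data known. Data were simulated for this comparison (18769 probe sets) with independent noise, and changes were planted only in probe sets with a mean of 6 or more. Of these, the fit recovered 13.4% of 1.5-fold, 65.7% of 2-fold and 95.5% of 4-fold changes, with 4 false calls. Recovery among dimmer probe sets, or with a spread shared by replicates, was not tested. Figures were drawn with matplotlib 3.10.9.

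The alternatives were quantile normalization, median centring, signals under 32 set to 32, no trend, the replicate number as a block, a mean of at least 6, only the arrays compared, the methods' t-test, and leaving out each array.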

Additional observations from a re-analysis of the deposited data

Results flagged for a closer look

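The effect of TFAM overexpression was tested for a difference between backgrounds, and 10 probe sets passed for Aop RNAi against the control background and 3 for Aop RNAi against Pnt RNAi (limma, Benjamini-Hochberg over all probe sets). Of the first 10, 4 were positive: Zip102B at 12.90 (standard error 0.78, or 9.75 with signals under 32 set to 32), RFeSP at 3.98 (0.33), Reepl1 at 3.53 (0.63) and TTLL4B at 1.30 (0.23). Of the negative ones, 3 were called in the Aop RNAi background and are described above: Cyp6a17 at -5.70 (standard error 0.94, or -3.81 with signals under 32 set to 32), CG34051 at -5.49 (0.77) and Arpc1 at -1.85 (0.25).

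The other 3 were not called in the Aop RNAi background. CG7607 rose by 1.34 with TFAM o/e in the control background and had a difference of -0.16 in the Aop RNAi background, which gives -1.50 (limma adjusted p = 0.0053). An unnamed probe set gave -1.80 (0.93 in the control background and -0.87 with Aop RNAi), and the probe set shared by teq and RhoU gave -1.81 (0.89 and -0.92), both at a limma adjusted p of 0.0476. With 1 array left out, CG7607 passed in all 12 fits, the unnamed probe set was lost in 11 and teq with RhoU in 10.

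Between the Aop RNAi and Pnt RNAi backgrounds, CG34051 gave -7.19 (limma adjusted p = 0.000394). The gene SCAP, whose product escorts SREBP, gave -2.31 (limma adjusted p = 0.00803), with a rise of 2.18 from a mean of 6.34 in the Pnt RNAi background and a difference of -0.14 in the Aop RNAi background. Idgf3, an imaginal disc growth factor of the chitinase-like family, gave -1.57 (limma adjusted p = 0.00245), with a rise of 1.63 from a mean of 8.13 with Pnt RNAi and a difference of 0.06 with Aop RNAi.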

How the results depend on the processing

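The count of 39 calls (22 higher, 17 lower, 33 with a mean of 6 or more) stayed within 1.5 times under quantile normalization, median centring, signals under 32 set to 32, and a mean of at least 6, with 38, 31, 31 and 33 of the same probe sets passing. Median centring moved the median difference over all probe sets by 0.11. With no intensity trend 20 passed among those with a mean of 6 or more. With only the arrays compared 12 passed (7 higher, 5 lower, 12 with a mean of 6 or more). The methods' t-test gave 0 in each count after Benjamini-Hochberg adjustment and 532 (239 higher, 293 lower, 96 with a mean of 6 or more) at their threshold, where limma, added after seeing the data, gave 636 (268, 368 and 162). The 10 interactions with Aop RNAi became 6 with median centring, 5 without a trend and 3 with only the arrays compared. The 3 differences from the Pnt RNAi background became 1 with median centring, 14 with signals under 32 set to 32 and 1 without a trend. The methods' t-test was not run for these 2 contrasts. The smaller fits also held fewer arrays, and in each case the cause was not tested.

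With 1 array left out the total was 24 to 37 (higher 12 to 20, lower 12 to 17, with a mean of 6 or more 22 to 32), the fewest, 24 and 25, without replicate 2 or 1 of the double genotype. Interactions with Aop RNAi were 5 to 7, and differences from Pnt RNAi 3. The replicate block gave 47 calls (all 39 among them), with 10 and 3 differences between backgrounds. Arrays with the same replicate number had residual correlations of 0.443, 0.0464 and 0.393 over 8633 probe sets. Those with different numbers had -0.482 to 0.238. Each group was centred on its own mean, which ties these values to each other. The labels do not say what the numbers stand for. The main model took no pairs, and a spread shared by arrays of 1 number was not tested apart from the block. With the block, Reepl1 lost its interaction (limma adjusted p = 0.0704), and Arc2 passed in the control background (0.00437) and Cyp6a17 in the Pnt RNAi background (0.0258). The counts for Aop RNAi alone, the double genotype alone and neither against the control became 14, 14 and 5. It changed no other call among the 44 probe sets called in the Aop RNAi background or for a difference between backgrounds.

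With signals under 32 set to 32, the calls lost were those of Arc1, Arglu1, CG14757, CG15731, CG13566, CG13053, CG34109 and an unnamed probe set. In the control background GstD2 and botv no longer passed (limma adjusted p = 0.0565 for both), nor did Arc1, Adk3 and Cpr51A with Pnt RNAi (0.0845, 0.0845 and 0.051), and 2 of the 10 interactions were lost (an unnamed probe set and teq with RhoU) and 1 gained (Dnaaf3). Cyp6a17 then passed with Pnt RNAi (0.0205), and Dnaaf3, Kmn1 and Reepl1 passed for a difference from that background. Some uncalled values changed sign. The difference of aop was 0.067 with median centring and -0.18 to 0.068 with 1 array left out, where v ranged from -0.55 to 0.14, Ilp5 from -0.11 to 0.22, the second Hsp22 probe set from -0.32 to 0.56, the second RFeSP probe set from -0.048 to 0.36 and Hsp60A from -0.12 to 0.22. Under the floor of 32, GstD5, Hsc70-2 and CG34109 gave no value.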
